A study of Homo sapiens with 8 samples.

Results

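The genes of polyamine metabolism comprised 10 genes, SMOX, SAT1, PAOX, ODC1, AMD1, SRM, SMS, OAZ1, OAZ2 and AZIN1, of the 19046 genes tested on the arrays. SMOX entered because it was among the strongest rises in these data, so its values are a description and carry no test. The other 9 genes were chosen for their place in the same pathway. Expression was measured in A549 cells, a human lung adenocarcinoma line, on 8 one-colour whole human genome arrays in 2 series, to compare a plant extract with a single compound. One series held EEDS, an ethanol extract of Descurainia sophia seeds, at 1.25, 5 and 20 µg/mL beside its own vehicle control. The other held helveticoside, a cardiac glycoside found in that extract, at 3.75, 15 and 60 nM beside its own vehicle control. All arrays carried the same cell line, for which no engineered genetic change was described. The study's methods give dimethyl sulfoxide as the solvent of the extract. The labels and the study's methods differ on the hours of exposure, and samples were placed by agent and dose alone.

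RNA of 3 cultures was combined for each array and no dose was repeated on another array, so a single dose carries no replicate error. The doses of the agents are in different units and were set side by side only as low, middle and top. Agent and series cannot be told apart, nor can less RNA per cell from fewer cells. No probe spot was saturated, and between 54.5% and 64.9% of the probes were well above background on an array by the scanner software's call. All 10 A549 marker genes examined, keratins and NQO1 among them, were well above background on all 8 arrays. Of the markers of other cell types, CD3E, PECAM1, VWF, PDGFRB and DCN were well above background on none, while CD14, PTPRC, CDH5 and COL1A1 were so on all 8 and COL3A1 on 1.

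Polyamines are small positively charged molecules that bind nucleic acids and are needed for growth. Ornithine decarboxylase makes putrescine from ornithine, and aminopropyl groups from decarboxylated S-adenosylmethionine then lengthen it to spermidine and on to spermine. Acetylation and oxidation run the chain backwards, and antizyme, whose translation polyamines stimulate, binds the decarboxylase and delivers it to the proteasome.

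With each agent, the transcripts of the decarboxylases ODC1 and AMD1 rose with dose, those of the oxidase PAOX and of antizyme OAZ1 fell, and SMOX stood far above its control from the lowest dose on. At 20 µg/mL EEDS, 4 of the 10 genes were more than 2-fold higher than control (SMOX, SAT1, ODC1 and AMD1) and 2 more than 2-fold lower (PAOX and OAZ1). Among all 19046 genes, 13.4% were more than 2-fold higher and 14.6% lower in that comparison. Such shares of all genes take in genes that were not well above background. At 60 nM helveticoside, 3 were more than 2-fold higher (SMOX, ODC1 and AMD1) and 3 lower (PAOX, OAZ1 and OAZ2), where the shares of all genes were 10.9% and 12.9%. Without SMOX, the median log2 ratio of the other 9 genes was -0.41 at the top EEDS dose and -0.13 at the top helveticoside dose, against 0.02 and -0.00 for all genes. With SMOX, chosen for its rise, the medians were 0.13 and 0.16. Genes of the list stood on both sides of their controls.

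**Figure D1:**
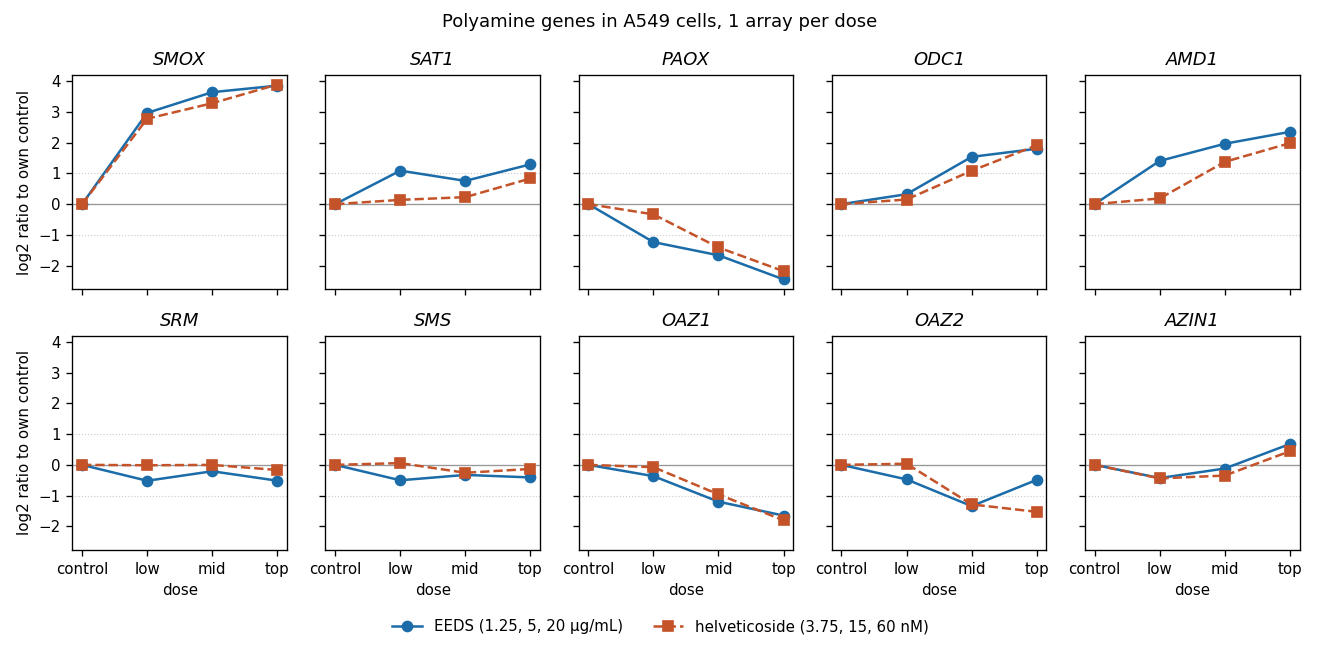
Log2 ratio of the normalized intensity of each of the 10 genes to the control of its own series (vertical axis) against dose (horizontal axis), with EEDS as circles and helveticoside as squares, 1 array per point. Solid grey lines mark no difference and dotted lines a 2-fold difference; SMOX stands at 2.97 and 2.78 at the lowest doses, while PAOX and OAZ1 end below -1.

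The middle doses gave a like picture. SMOX, chosen for its rise, is among the higher genes at each dose given in this paragraph. At 5 µg/mL EEDS, SMOX, ODC1 and AMD1 were more than 2-fold higher and PAOX, OAZ1 and OAZ2 lower, with 7.35% of all genes higher and 8.53% lower. At 15 nM helveticoside, the same 3 genes were higher and PAOX and OAZ2 lower, with 7.13% and 8.11% of all genes. At 1.25 µg/mL EEDS, SMOX, SAT1 and AMD1 were more than 2-fold higher and PAOX lower, against 4.21% and 3.71% of all genes. Scaling the arrays to their 75th percentile turned that last split of all genes from 802 higher and 706 lower to 741 and 1196. At 3.75 nM helveticoside, SMOX alone of the 10 passed 2-fold, in the higher direction, and the shares of all genes were 3.4% and 4.34%. The control arrays of the series differed by more than 2-fold for 5.81% of all genes in one direction and 4.7% in the other, and for none of the 10.

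A dose trend was tested with limma as a slope on the dose step (control, low, middle, top) in a fit of all 8 arrays, with Benjamini-Hochberg adjustment over all genes. Of the 9 genes other than SMOX, 2 rose (ODC1 and AMD1) and 2 fell (PAOX and OAZ1) with EEDS at an adjusted p under 0.05. Among all genes, 7.27% rose and 7.9% fell. With helveticoside the same 4 genes passed in the same directions, against 5.48% and 5.83% of all genes. The tests of the agents shared the same estimate of the scatter, so they are not independent of each other. With each series fitted alone, 0 of 19046 genes passed with either agent. The fit rests on 4 residual degrees of freedom, and the 8 arrays supply no repeat of any dose, so the p-values measure the scatter about straight lines and not that between cultures.

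SMOX encodes spermine oxidase, which turns spermine back into spermidine and releases hydrogen peroxide and an aldehyde. Its gene lies at chr20:4148828-4187727 in GRCh38.p14. Its normalized intensity was 5340 on the EEDS control array and 41794, 66713 and 77293 at the rising EEDS doses. In the other series it was 7321 on the control array and 50254, 71320 and 108650 at the rising helveticoside doses. All 6 treated arrays lay above both controls, and the lowest of them was the lowest EEDS dose. The ratio to control was 7.83-, 12.5- and 14.5-fold with EEDS and 6.86-, 9.74- and 14.8-fold with helveticoside. The controls themselves differed by 0.46 on the log2 scale, the helveticoside control being higher. In the order of log2 ratios from the highest down, SMOX stood 15th, 17th and 60th of 19046 genes at the EEDS doses and 57th, 55th and 58th at the helveticoside doses. Most of the difference was present at the lowest dose of each agent, where its log2 ratio was 2.97 and 2.78, and the step from the middle to the top dose added 0.21 with EEDS and 0.61 with helveticoside.

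SMOX and OAZ2 were each printed at 10 spots of 1 probe, which shows the error of reading a spot within an array. The standard deviation of the log2 processed intensity over the SMOX spots lay between 0.042 and 0.072 on the 8 arrays. Over the OAZ2 spots it lay between 0.037 and 0.059, with 1 outlier spot left out at 60 nM helveticoside. This spread covers spotting and scanning, not cultures. It does not gauge the SMOX ratios, which are taken between arrays and belong to a gene chosen for its rise.

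**Figure D2:**
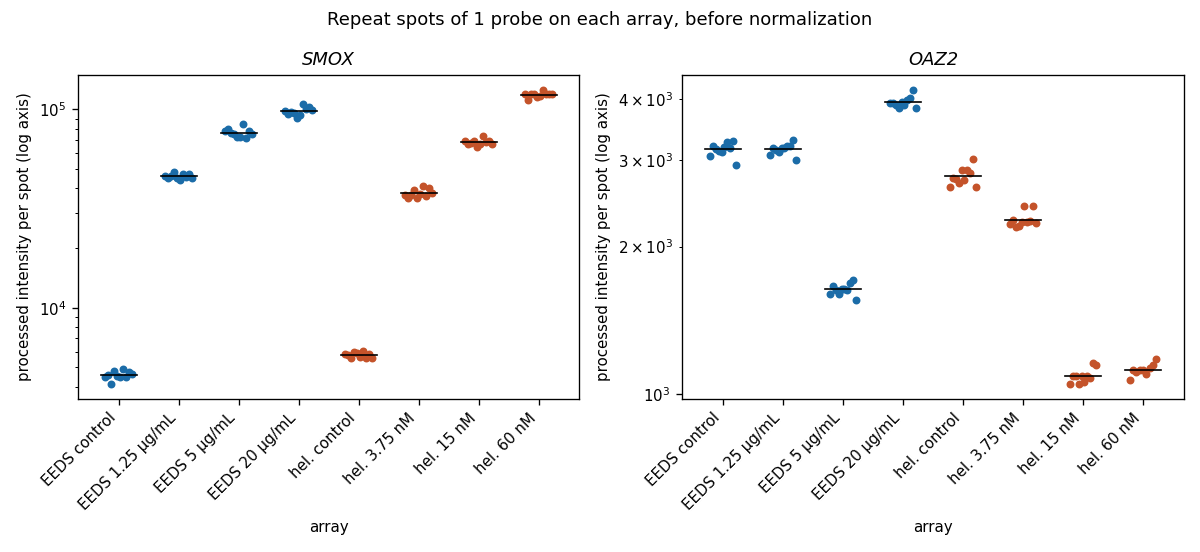
Processed intensity of every spot of the SMOX and OAZ2 probes on each of the 8 arrays, before normalization, on a log axis. Each point is 1 spot and each bar the mean of an array's spots; the 10 SMOX spots of every treated array lie far above those of the controls, and the OAZ2 spots lie lowest at 5 µg/mL EEDS and at 15 and 60 nM helveticoside.

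The 5 genes whose 6 log2 ratios came closest to those of SMOX, among 11488 other genes whose signal cleared the background on all arrays, were BIRC3, EREG, IL1RAP, LY6K and LSMEM1. BIRC3, an inhibitor of apoptosis and a ubiquitin ligase, had a root mean square difference from SMOX of 0.78 on the log2 scale. Its ratios were 2.68, 3.47 and 4.35 with EEDS and 1.22, 2.47 and 3.48 with helveticoside. The difference was 0.86 for EREG, a ligand of the epidermal growth factor receptor, and 0.94 for IL1RAP, a subunit of the interleukin-1 receptor. It was 0.96 for LY6K and 0.995 for LSMEM1. All 5 stood lower than SMOX at the lowest dose of helveticoside, between 0.96 and 1.36 against 2.78.

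SAT1 encodes spermidine/spermine acetyltransferase, whose acetylated products are exported or passed to the oxidase PAOX. Its normalized intensity was 25675 on the EEDS control array and 54625, 43353 and 62988 at the rising doses. In the helveticoside series it was 27988 on the control array and 30804, 32750 and 49918. Every treated array lay above both controls after normalization, but the EEDS values did not climb steadily. Before normalization the lowest helveticoside dose was below its control, at a processed intensity of 21700 against 22200. Its log2 ratios were 1.09, 0.76 and 1.29 with EEDS and 0.14, 0.23 and 0.83 with helveticoside. The slope per dose step was 0.36 ± 0.12 (SE) with EEDS (limma, adjusted p = 0.114) and 0.26 ± 0.12 with helveticoside (limma, adjusted p = 0.240), so neither passed. With arrays scaled to their 75th percentile both passed, at limma adjusted p of 0.0360 and 0.0460. A fainter probe of the gene gave log2 ratios of 0.89, 0.72 and 0.97 with EEDS and 0.17, 0.30 and 0.76 with helveticoside.

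PAOX encodes the peroxisomal oxidase that acts on acetylated polyamines. Along the EEDS series its normalized intensity was 1854 on the control array and 787, 585 and 340 at the rising doses. With helveticoside it went from 1536 on the control array to 1219, 578 and 339. Each treated array was below the one before it in both series, and no treated array reached either control. The log2 ratios were -1.24, -1.66 and -2.45 with EEDS and -0.33, -1.41 and -2.18 with helveticoside, so that 0.183 and 0.220 of the control intensity was left at the top doses. The slope was -0.78 ± 0.099 (SE) per step with EEDS (limma, adjusted p = 0.0152) and -0.76 ± 0.099 with helveticoside (limma, adjusted p = 0.0194).

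The 3 PAOX probes did not behave alike. The used probe, the brightest, is annotated to transcript NM_152911. A probe annotated to NM_207128 was lower at every EEDS dose, with log2 ratios of -0.73, -1.21 and -1.69. It was not well above background on the treated helveticoside arrays, where it was at least 1.35-, 2.24- and 1.89-fold lower than control at the low, middle and top dose. Such a bound sets the control against the higher of the dim value and the faintest signal well above background on that array. A probe annotated to NM_207127, with intensities between 61.1 and 137 on the 8 arrays, gave -0.53, -0.47 and -0.61 with EEDS but 0.42, 0.42 and 0.02 with helveticoside. The fall with helveticoside was therefore seen on the used probe and on the NM_207128 probe, and not on the NM_207127 probe.

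**Figure D3:**
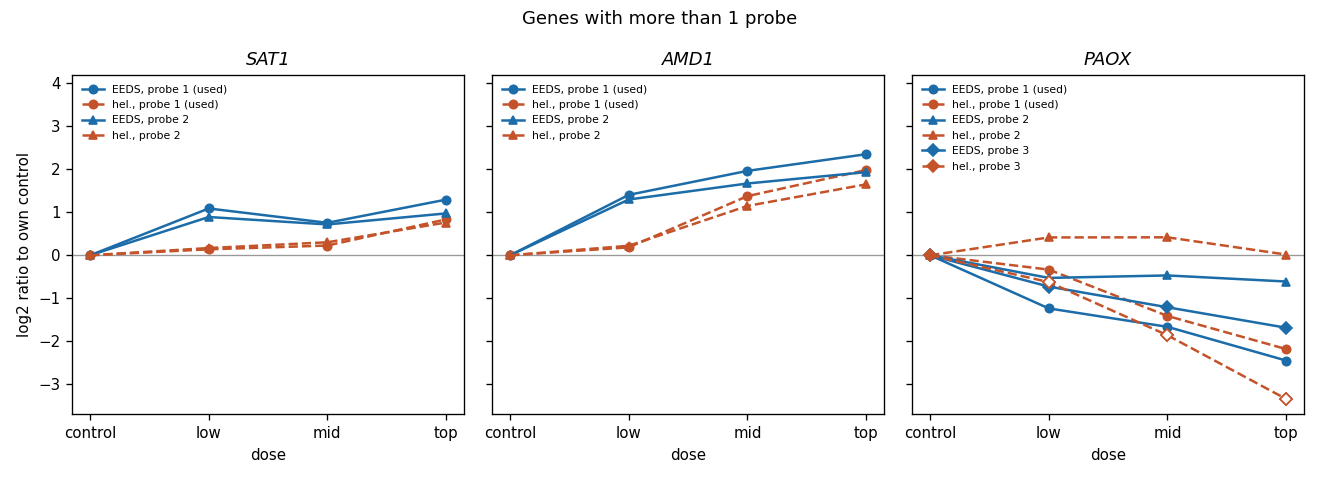
Log2 ratio to the control of the same series (vertical axis) at each dose (horizontal axis) for every probe of SAT1, AMD1 and PAOX, with EEDS as solid and helveticoside as dashed lines. Probe 1 is the one used, and for PAOX probe 2 is annotated to NM_207127 and probe 3 to NM_207128; open symbols were not well above background, and the PAOX probe 2 helveticoside line stays between 0.02 and 0.42.

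ODC1 encodes ornithine decarboxylase, the rate-limiting enzyme of polyamine synthesis. The EEDS control array gave a normalized intensity of 17923, and the rising doses 22406, 52036 and 62499. In the helveticoside series it was 13098 on the control array and 14534, 27788 and 49432. Both series climbed at every step after normalization, and the controls differed by 0.45 on the log2 scale, with the EEDS control higher. Before normalization the lowest helveticoside dose was below its control, at a processed intensity of 9570 against 10200. The log2 ratios were 0.32, 1.54 and 1.80 with EEDS and 0.15, 1.09 and 1.92 with helveticoside, that is 3.49- and 3.77-fold at the top doses. The slope was 0.66 ± 0.11 (SE) per step with EEDS (limma, adjusted p = 0.0232) and 0.67 ± 0.11 with helveticoside (limma, adjusted p = 0.0279). Against the EEDS control in place of its own, the lowest helveticoside dose turned to a log2 ratio of -0.30.

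AMD1 encodes S-adenosylmethionine decarboxylase, which supplies the aminopropyl groups of spermidine and spermine. Its normalized intensity was 9910 on the EEDS control array and 26263, 38663 and 50575 at the rising doses. It was 9026 on the helveticoside control array and 10259, 23425 and 35689 at the rising doses. AMD1 thus climbed at every step in both series after normalization. Before it, the lowest helveticoside dose was below its control, at a processed intensity of 6840 against 7070. At the lowest dose the log2 ratio of AMD1 was 1.41 with EEDS and 0.18 with helveticoside. The middle and top doses gave 1.96 and 2.35 with EEDS and 1.38 and 1.98 with helveticoside. The slope was 0.76 ± 0.13 (SE) per step with EEDS (limma, adjusted p = 0.0241) and 0.71 ± 0.13 with helveticoside (limma, adjusted p = 0.0322). A fainter AMD1 probe gave 1.30, 1.67 and 1.93 with EEDS and 0.22, 1.15 and 1.65 with helveticoside. Between the control arrays, however, that probe differed by 1.38 on the log2 scale, and the used probe by -0.13.

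SRM and SMS encode spermidine synthase and spermine synthase, which carry out the aminopropyl transfers. SRM stayed between 4121 and 6622 normalized intensity on the 8 arrays, and SMS between 5574 and 10153. For both genes the EEDS control was the highest array of all after normalization. Before normalization the top EEDS dose was the highest array. Its processed intensity was 7290 for SRM and 12000 for SMS, against 5620 and 8620 on the EEDS control. The log2 ratios of SRM were -0.52, -0.21 and -0.51 with EEDS and -0.01, -0.00 and -0.17 with helveticoside. Those of SMS were -0.50, -0.33 and -0.41 with EEDS and 0.06, -0.26 and -0.13 with helveticoside. Neither passed the trend test, with limma adjusted p of 0.328 and 0.791 for SRM and of 0.403 and 0.640 for SMS with EEDS and helveticoside. Their difference between the control arrays, -0.52 for SRM and -0.61 for SMS, was as large as or larger than any of these ratios. Set against the helveticoside control, both genes turned to ratios at or above 0 at all EEDS doses, up to 0.31 for SRM and 0.28 for SMS. With scaling to the 75th percentile SRM was above 0 at all helveticoside doses, up to 0.16, and SMS at the lowest and the top one, at 0.20 and 0.14.

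OAZ1 encodes the main antizyme. Along the EEDS series the normalized intensity of OAZ1 was 147625 on the control array and 114538, 64338 and 47031 at the rising doses. With helveticoside it was 123438 on the control array and 117206, 63444 and 35325. The value dropped at every step in both series, and no treated array reached the control of either series. The log2 ratios were -0.37, -1.20 and -1.65 with EEDS and -0.07, -0.96 and -1.81 with helveticoside, leaving 0.319 and 0.286 of the control intensity at the top doses. The slope was -0.58 ± 0.093 (SE) per step with EEDS (limma, adjusted p = 0.0207) and -0.63 ± 0.093 with helveticoside (limma, adjusted p = 0.0228). With scaling to the 75th percentile the ratio at the lowest helveticoside dose was 0.18, above control.

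OAZ2, a second antizyme gene, did not follow the same course with EEDS. Its normalized intensity was 3614 on the EEDS control array and 2605, 1426 and 2576 at the rising doses. On the helveticoside arrays it was 3409 at the control and 3498, 1397 and 1182 at the rising doses. The log2 ratios were -0.47, -1.34 and -0.49 with EEDS and 0.04, -1.29 and -1.53 with helveticoside. From the middle to the top dose OAZ2 thus went up by 0.85 on the log2 scale with EEDS, between 0.79 and 0.92 over 9 ways of processing, and down with helveticoside, by a change of -0.24. The 10 spots of the probe gave mean processed intensities, before normalization, of 3155, 3159, 1636 and 3939 along the EEDS series. At the top EEDS dose OAZ2 was therefore above its control before normalization and below it afterwards, with log2 ratios between -0.63 and -0.31 over 8 ways of processing against its own control. Along the helveticoside series the spot means were 2783, 2270, 1091 and 1122. The slope was -0.23 ± 0.19 (SE) per step with EEDS (limma, adjusted p = 0.486) and -0.59 ± 0.19 with helveticoside (limma, adjusted p = 0.111), so neither passed.

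AZIN1 encodes an antizyme inhibitor, a relative of ornithine decarboxylase without enzyme activity that captures antizyme. It ranged from 2468 to 6453 normalized intensity. After normalization the low and middle doses of both series lay below the control and the top dose above it. The log2 ratios were -0.43, -0.12 and 0.68 with EEDS and -0.44, -0.35 and 0.44 with helveticoside. Scaling to the 75th percentile moved the middle EEDS dose to 0.01, and the other series' control moved it to 0.15. Before normalization the processed intensities along the EEDS series were 3530, 3600, 4310 and 10200, so no EEDS dose lay below its control. Along the helveticoside series they were 2740, 1610, 2040 and 4490. The step from the middle to the top dose was 0.80 with EEDS and 0.79 with helveticoside. A straight line describes such a course poorly, and the slopes of 0.23 ± 0.17 (SE) and 0.14 ± 0.17 did not pass (limma, adjusted p = 0.415 and 0.698).

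The slopes of the agents were compared in the same fit. For no gene of 19046 did limma's slope difference reach an adjusted p under 0.05, while 526 genes, or 2.76%, had an unadjusted p under 0.05. All 9 tested genes of the pathway had an adjusted p of 1. The difference, EEDS minus helveticoside, was -0.02 for PAOX (95% interval -0.37 to 0.34), -0.01 for ODC1 (-0.40 to 0.39), 0.05 for AMD1 (-0.42 to 0.51) and 0.05 for OAZ1 (-0.28 to 0.38), in log2 units per step. It was widest for OAZ2, at 0.36 (-0.32 to 1.04). These intervals leave room for differences in either direction, and a p that missed the threshold does not show that the agents acted alike.

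RefSeq windows of 300 bases around a transcript's start were at hand for 7 of the 10 genes. They are shown for the decarboxylases that rose together, for SRM and for OAZ1, so that the start regions of genes with different courses can be read side by side. Capitals mark CACGTG, the E-box bound by MYC and its relatives, and GCGNGGGCG, the motif of the EGR factors, searched on both strands. All windows are on GRCh38.p14 and read 5′ to 3′ on the gene's strand. The first ODC1 window belongs to the outer start at chr2:10448278-10448577 on the minus strand, and the next one to an inner start at chr2:10447963-10448262.
ODC1 outer start: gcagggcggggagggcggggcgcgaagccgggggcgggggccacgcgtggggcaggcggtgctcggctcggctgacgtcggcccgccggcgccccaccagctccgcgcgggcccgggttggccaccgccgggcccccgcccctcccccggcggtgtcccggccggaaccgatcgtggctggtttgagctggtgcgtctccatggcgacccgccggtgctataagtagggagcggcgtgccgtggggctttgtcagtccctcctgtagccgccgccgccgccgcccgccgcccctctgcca
ODC1 inner start: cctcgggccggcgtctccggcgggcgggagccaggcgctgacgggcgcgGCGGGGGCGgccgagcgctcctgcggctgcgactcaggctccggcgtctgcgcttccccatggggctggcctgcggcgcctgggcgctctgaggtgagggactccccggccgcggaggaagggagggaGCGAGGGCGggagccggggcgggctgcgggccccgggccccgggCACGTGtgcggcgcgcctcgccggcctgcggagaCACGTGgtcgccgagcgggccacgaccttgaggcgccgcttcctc
AMD1, chr6:110874535-110874834, plus strand: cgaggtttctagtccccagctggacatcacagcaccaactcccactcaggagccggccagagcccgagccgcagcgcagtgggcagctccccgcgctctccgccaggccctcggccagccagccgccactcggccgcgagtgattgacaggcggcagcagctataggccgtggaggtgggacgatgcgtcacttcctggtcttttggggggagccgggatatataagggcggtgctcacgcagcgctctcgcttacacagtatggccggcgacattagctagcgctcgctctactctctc
SRM, chr1:11059969-11060268, minus strand: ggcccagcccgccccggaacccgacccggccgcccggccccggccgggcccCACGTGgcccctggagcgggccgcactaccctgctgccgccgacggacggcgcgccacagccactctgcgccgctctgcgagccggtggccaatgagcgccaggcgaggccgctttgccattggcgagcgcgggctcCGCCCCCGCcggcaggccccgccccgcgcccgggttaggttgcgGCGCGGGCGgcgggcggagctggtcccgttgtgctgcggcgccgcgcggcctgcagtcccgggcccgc
OAZ1, chr19:2269236-2269535, plus strand: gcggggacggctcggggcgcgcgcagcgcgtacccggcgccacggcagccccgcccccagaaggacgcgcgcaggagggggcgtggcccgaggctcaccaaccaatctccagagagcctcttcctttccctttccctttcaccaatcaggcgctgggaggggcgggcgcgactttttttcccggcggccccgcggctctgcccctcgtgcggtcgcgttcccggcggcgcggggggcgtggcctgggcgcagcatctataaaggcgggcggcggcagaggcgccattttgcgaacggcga
The inner ODC1 window held CACGTG at positions 222 and 256 and GCGNGGGCG at positions 50 and 178, counted from the window's first base. The SRM window held CACGTG at position 52 and GCGNGGGCG at positions 189 and 233, the former on the opposite strand. The printed AMD1, OAZ1 and outer ODC1 windows held neither motif. The window of another AMD1 start, at chr6:110814367-110814666, held GCGNGGGCG at position 207, and the SMS window held it at position 206. Of all 35116 such windows around transcript starts, 7.26% held CACGTG and 9.43% held GCGNGGGCG. These shares count windows and not genes, and ODC1 has 2 windows and AMD1 has 3. The AP-1 motif TGANTCA, present in 7.71% of windows, was found among the 7 genes in OAZ2 alone, at position 10. A match is a stretch of letters and not a measured binding site.

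Around these genes, 32 of 34 genes listed for polyamine supply, use, breakdown or transport were measured. At the top EEDS dose 5 were more than 2-fold higher and 8 lower, with a median log2 ratio of -0.02, beside 13.4% and 14.6% of all genes. At the top helveticoside dose 5 were higher and 7 lower, with a median of -0.00, beside 10.9% and 12.9% of all genes. These counts take dim values as they stand: MAT1A is among the 8, and of the 5 at the top helveticoside dose AOC2 and ARG2 have only bounds under 2-fold. The trend test called 3 rising and 3 falling with EEDS, where 7.27% and 7.9% of all genes did, and 3 rising and 1 falling with helveticoside, where 5.48% and 5.83% did. Those 12 that passed 2-fold the same way at both top doses, or the trend test with both agents, are named here.

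Spermidine is also the donor for hypusine, the modified lysine of the translation factor eIF5A. Of 3 measured genes of that branch, 2 passed the trend test rising with both agents, where 7.27% and 5.48% of all genes did. EIF5A itself had log2 ratios of 0.23 and 0.25 at the top doses (limma trend, adjusted p = 0.328 and 0.438). DHPS, also listed, was not measured. DOHH, the hydroxylase of the last step, had log2 ratios of 2.32 at 20 µg/mL EEDS and 1.87 at 60 nM helveticoside (limma trend, adjusted p = 0.0132 and 0.0170). EIF5A2, a second gene for the factor, had 1.71 and 1.69 (limma trend, adjusted p = 0.0284 and 0.0319). Among 5 genes listed as other breakdown enzymes, the amine oxidase AOC3 had 4.17 and 3.31 (limma trend, adjusted p = 0.0174 and 0.0256). Whether AOC3 acts on polyamines was not tested. Of the others on that list, SAT2 was well above background on all 8 arrays and had 0.56 and 0.17. AOC1 was so on 2 arrays and SATL1 on 0, so their ratios are not measured ones. AOC2, a relative of AOC3, was not well above background on either control array and was at least 2.72-fold higher at the top EEDS dose and at least 1.13-fold higher at the top helveticoside dose.

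In ornithine supply, ARG2, the mitochondrial arginase, had a log2 ratio of 1.80 at the top EEDS dose. It was not well above background on the helveticoside control array, and at 60 nM it was at least 1.56-fold higher. ASS1 and ASL, which rebuild arginine, had -1.49 and -1.25 at the top EEDS dose and -1.11 and -1.19 at the top helveticoside dose. In the supply of S-adenosylmethionine and the salvage of its methylthio group, MAT2A, MTAP and MRI1 were more than 2-fold lower at both top doses. Of the other listed genes of this supply, MAT1A passed 2-fold at the top EEDS dose but was well above background on 1 array only, so its fold is not a measured one. MAT2A, which makes S-adenosylmethionine, had log2 ratios of 0.36, -0.30 and -1.61 at the rising EEDS doses. At the rising helveticoside doses it had -1.41, -0.16 and -1.61, so it did not fall steadily. MTAP, which clears the by-product of the aminopropyl transfers, had -1.90 and -1.12 at the top EEDS and helveticoside doses on the used probe alone. Its other probes were well above background on no array, and whether the gene is intact in these cells was not examined. MRI1, the isomerase after MTAP, had -1.28 and -1.03 at those doses. None of MAT2A, MTAP and ASS1 passed the trend test with either agent, and ASL and MRI1 passed it with EEDS (limma, adjusted p = 0.0459 and 0.0474) and not with helveticoside (0.0527 and 0.0777).

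Of the transporters, SLC22A3, an organic cation carrier, fell with both agents (limma trend, adjusted p = 0.0209 and 0.0227), with a log2 ratio of -2.39 at the top EEDS dose. At 60 nM helveticoside it was not well above background and at least 5.55-fold lower than control. ATP13A2, the lysosomal polyamine exporter, had -2.12 and -1.39 and did not pass the trend test (limma, adjusted p = 0.0615 and 0.123). ATP13A3, which the naming rule does not cover, went the other way, with 0.56 and 0.54 at the top EEDS and helveticoside doses. A fainter ATP13A3 probe gave 1.18 and 1.16, and the used probe did not pass the trend test (limma, adjusted p = 0.479 and 0.387).

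**Figure D4:**
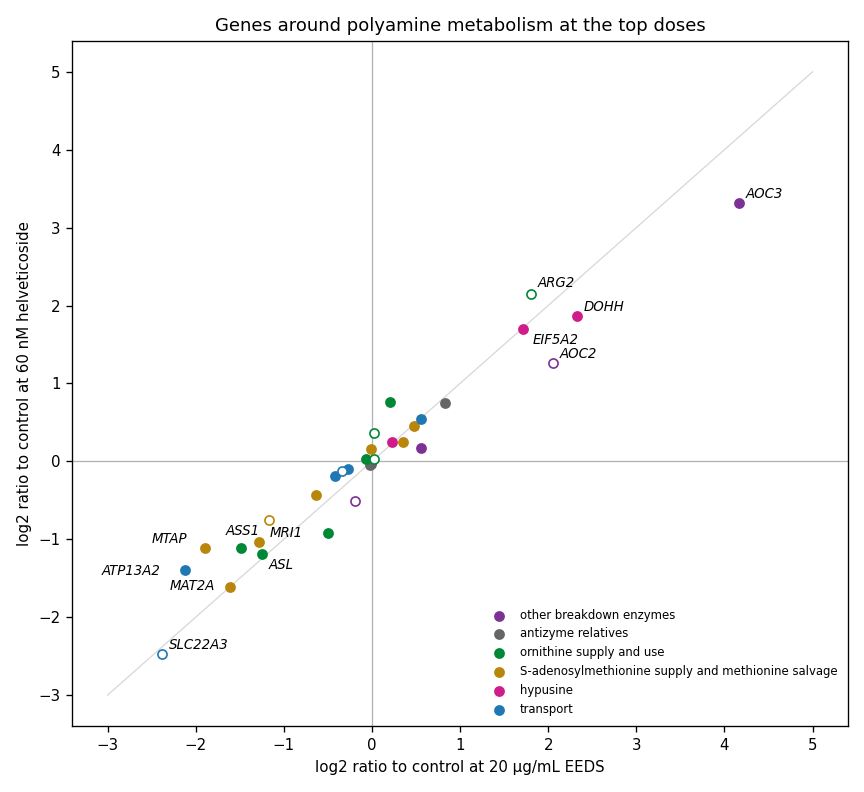
Log2 ratio to control at 60 nM helveticoside (vertical axis) against that at 20 µg/mL EEDS (horizontal axis) for the 32 genes around polyamine metabolism, coloured by role, with the 12 genes chosen by the stated rule labelled. Open circles were well above background on fewer than 8 arrays, the grey diagonal marks equal ratios, and AOC3 lies farthest out at 4.17 and 3.31.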

How the data were processed

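For each of the 8 arrays the authors deposited spot intensity values from Agilent's feature extraction software, including a background-subtracted processed signal that was not normalized between arrays. They also deposited a table of quantile-normalized intensity values, used as an alternative. Here control and outlier spots were left out, processed signals were averaged per probe, quantile-normalized over the 8 arrays and put on the log2 scale. A value under 1.4 times its local background was raised to the lowest detected signal of its array. Of 34105 probes, 24812 matched 19056 genes through RefSeq or Ensembl identifiers (GRCh38.p14), with the brightest probe per gene used. Tested were the 19046 genes with a signal of at least 1.4 times local background on some array of each series. That filter is looser than the scanner software's call of well above background. Trends were fitted with limma 3.58.1 (R 4.3.3; trend and robust estimation, moderated degrees of freedom 5.51). In simulated data with 200 changed genes, 65% of slopes of 1 and 35% of slopes of 0.5 were called, and 6 of 106 calls were unchanged genes. The simulation drew independent normal scatter about straight lines and changed genes in the EEDS series alone. Its rates therefore need not hold for these arrays, where many more genes were called. The members, lists and rules were chosen with earlier results of these data known. All 10 genes are named, and of the surrounding list those past 2-fold at both top doses in 1 direction or called with both agents. Some listed genes are not reported here. The genome build behind the probes is not given in the sources used here.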

Additional observations from a re-analysis of the deposited data

How the results depend on the processing

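The count of polyamine genes past 2-fold at 20 µg/mL EEDS was 6 under every alternative run (75th percentile scaling, normexp background correction, signal as scanned, deposited values, both probe filters, the mean of a gene's probes and the other series' control). At 60 nM helveticoside it was 6, and 7 with 75th percentile scaling, which added SAT1. SMOX, chosen for its rise, is in each of these counts. Under that scaling the median log2 ratio of all genes lay between -0.36 and 0.14 over the 6 doses, and between -0.04 and 0.02 in the values reported.

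The dose trends depended on having all 4 steps of both series. Without the lowest, the middle or the top dose, or with each series fitted alone, 0 of the 4 genes passed with EEDS and 0 with helveticoside, where limma called 0 of all 19046 genes too. Adjusted p-values of PAOX, ODC1, AMD1 and OAZ1 were then 0.0731 to 0.0956, 0.0968 to 0.144, 0.196 to 0.294 and 0.0985 to 0.116. With each series alone their unadjusted p lay between 0.00175 and 0.0120, and fewer arrays left fewer residual degrees of freedom. Under 75th percentile scaling, and with only the 11489 genes whose signal cleared the background on all arrays, 5 genes passed with each agent: SAT1 was added with both agents in the former, and SAT1 with EEDS and OAZ2 with helveticoside in the latter. Over all genes, limma called 2889 with EEDS, or 4604 from the deposited values, and 2153 with helveticoside. The slope difference was called for 0 of the 9 genes under each alternative that fitted both series together.

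The PAOX ratio turned positive on the NM_207127 probe, at 0.42 for 15 nM and 0.0173 for 60 nM helveticoside, and the cause was not tested. Of the alternative log2 ratios of single genes, 435 moved by less than the scatter of that gene about its trend lines, 67 by more, and the 2 just given changed sign from a ratio past 2-fold. No paired analysis was possible because each dose had 1 array and no replicate numbers were given. The number of arrays limits the precision.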

Other observations

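The 3 probes of MTAP, all annotated to 1 transcript, disagreed. The used probe was well above background on all 8 arrays, with normalized intensities between 922 and 4518. The other ones were well above background on 0 arrays, with intensities between 7.23 and 9.20. The MTAP ratios given above are those of the used probe alone. Neither where the probes lie in the gene nor whether the gene is intact in these cells was examined.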
